A study of Bos taurus with 12 samples.

Results

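Transcript levels of 5 genes that mark the granulosa epithelium, KRT18, CDH2, IHH, NR5A2 and GATM, were followed across both cell layers and all sizes of the bovine antral follicle. The genes were found by their symbols in the platform's probe annotation, which gave 1 probe set for each, so that they make up 5 of the 9155 genes with a symbol there. All 5 probe sets passed the filter on low signals that left 17236 probe sets for testing. The samples were granulosa cells and theca cells from follicles of 3 sizes, small at 5 mm or less, medium between 5 and 10 mm, and large above 10 mm, with 2 arrays for each layer and size and 12 arrays in all. Ovaries were untreated, came from young cycling heifers that were not pregnant, and had no corpus luteum, which placed them in the follicular stage.

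Each RNA sample was a pool of cells from 20 to 40 follicles of 1 size per the labels' protocols, so the spread between arrays is that between pools and not that between animals. The series' design text gives 20 to 40 ovaries from 6 to 10 animals for each granulosa replicate. Values below are array signals on a linear scale as deposited. Changes are differences of log2(signal + 16) ± the standard error of a limma model fitted over all 12 arrays, with n = 2 arrays per layer and size. A gene is called where limma's p, adjusted by the Benjamini-Hochberg method over all tested probe sets, is under 0.05. In whole layers, fewer cells of a type and less RNA per cell cannot be told apart.

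Granulosa cells form an avascular epithelium inside the basement membrane of the follicle, while the theca outside it is a vascular stroma that makes androgens. KRT18 encodes a type I keratin that pairs with the type II keratin KRT8 in the filaments of simple epithelia. CDH2 encodes N-cadherin, which holds neighbouring granulosa cells together through catenins. IHH encodes Indian hedgehog, a secreted ligand that in the mouse ovary is made by granulosa cells and acts on theca cells through PTCH1 and SMO. NR5A2 encodes the nuclear receptor LRH-1, which in mice is needed in granulosa cells for ovulation. GATM encodes the mitochondrial amidinotransferase that makes guanidinoacetate from arginine and glycine, the step before GAMT methylates it to creatine.

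The layers were checked against their markers first, because the description field of the labels names theca for all 12 samples while titles and source names give granulosa for 6. Of 8 granulosa markers on the array 6 were called higher in the samples titled granulosa, at a median difference of 1.40, and of 6 theca markers 5 were called lower, at a median of -3.45. The median over all tested probe sets was 0.10, and 24.8% of them were called in either direction. In large follicles alone, 1 of the 8 granulosa markers was called higher, at a median of 0.44. Of the 6 theca markers 4 were called lower there, at a median of -3.60, against 4.41% of probe sets called in either direction. The summed signal of the theca markers was 1894 to 3415 on the granulosa arrays and 13831 to 22433 on the theca arrays, with no overlap. The summed signal of the granulosa markers overlapped, at 13087 to 34048 in granulosa and 6189 to 25047 in theca, since it climbed from 6189 and 6991 on the small theca arrays to 15927 and 25047 on the large ones. Array controls and signal levels set 2 arrays apart. The GAPDH control of theca small replicate 1 gave 8.36 times as much signal at its 3' end as at its 5' end. On arrays other than these the ratio was 0.984 to 1.30. Granulosa large replicate 1 had a median signal of 48.8 against 33.7 to 39.2. Its 3' to 5' ratio for the actin control was 21, against 2.39 to 11.2 on all other arrays, with 11.2 on theca small replicate 1. Granulosa large replicate 1 differed in markers of blood cells too. Its signal of HBB, a haemoglobin, was 578.5, against 7.7 to 50.4 on all other arrays. Its summed signal of leukocyte markers, 10625, was the highest of all arrays.

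**Figure D1:**
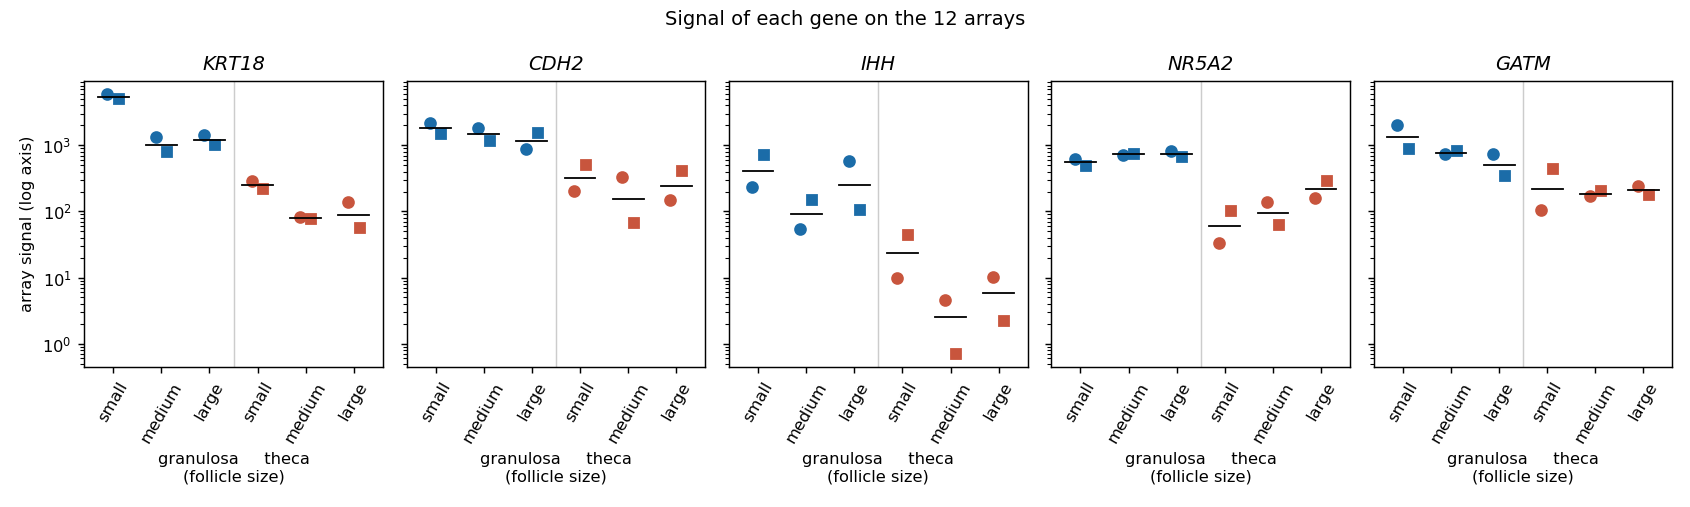
Array signal on a log axis for each gene, by layer and follicle size. Circles are replicate 1, squares replicate 2, and bars the group mean taken on the log2(signal + 16) scale. KRT18 was highest at 5964 and 4945 in small granulosa, and all theca arrays lay below all granulosa arrays for every gene except GATM.

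KRT18 had the largest layer difference of the 5 genes over all sizes on the log2(signal + 16) scale, while IHH came first with log2(signal + 1) and in large follicles. Its signal was 5964 and 4945 in small granulosa, 1318 and 801 in medium granulosa, and 1425 and 1019 in large granulosa. In theca it was 293 and 221 in small, 82.9 and 75.9 in medium, and 138 and 56.7 in large follicles. The lowest granulosa array thus lay 2.74 times above the highest theca array, and the small follicles stood above the other sizes in both layers. Over all sizes KRT18 was higher in granulosa by 3.77 ± 0.23 (13.7-fold, limma adjusted p = 9.19e-08), the 3rd largest positive difference among the 17236 tested probe sets. Small follicles gave 4.33 ± 0.40, medium ones 3.45 ± 0.40 and large ones 3.53 ± 0.40, called each time.

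CDH2 was also separated by layer, with more spread in theca. Its signals in granulosa were 2187 and 1478 in small, 1848 and 1168 in medium, and 877 and 1531 in large follicles. In theca they were 202 and 502 in small, 337 and 66.3 in medium, and 147 and 408 in large follicles. Granulosa replicates differed by 1.48 to 1.75 times and theca replicates by 2.48 to 5.08 times, yet no theca array reached the lowest granulosa array. The layer difference over all sizes was 2.57 ± 0.37 (5.95-fold, limma adjusted p = 0.000246). It was 2.43 ± 0.64 in small and 3.12 ± 0.64 in medium follicles, both called. In large follicles it was 2.16 ± 0.64 and not called (limma adjusted p = 0.074), with no overlap between the arrays of the layers. Lack of overlap between 2 and 2 arrays, here and below, is a description. An exact permutation test on such groups cannot go below p = 0.333.

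IHH had the lowest signals of the 5 genes in theca. On 5 of the 6 theca arrays its signal was below 22.5, the level of the filter, with 9.8 and 43.3 in small, 4.6 and 0.7 in medium, and 10.1 and 2.2 in large follicles. In granulosa it was 236 and 705 in small, 54.3 and 147 in medium, and 571 and 107 in large follicles. Every granulosa array was above every theca array, although replicate pools of granulosa differed by 2.70 to 5.35 times. The layer difference over all sizes was 3.20 ± 0.39 (9.18-fold, limma adjusted p = 6.26e-05), the 7th largest positive one. Because the theca signals were so low, its size depends on the constant added before the log, with 4.83 for log2(signal + 1) and 1.97 for log2(signal + 64), both called. Small follicles gave 3.44 ± 0.68, medium ones 2.53 ± 0.68 (adjusted p = 0.0434) and large ones 3.62 ± 0.68, all called.

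NR5A2 was the steadiest of the 5 in granulosa. Its signals there were 628 and 488 in small, 724 and 749 in medium, and 831 and 663 in large follicles. In theca they were 33.4 and 102 in small, 141 and 62.9 in medium, and 162 and 291 in large follicles. The layers did not overlap, and the theca arrays closest to granulosa were those of large follicles. The layer difference over all sizes was 2.45 ± 0.26 (5.47-fold, limma adjusted p = 1.66e-05). It was 2.90 ± 0.45 in small and 2.76 ± 0.45 in medium follicles. In large follicles it was 1.70 ± 0.45, with an adjusted p of 0.0484 just under the threshold.

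GATM gave the smallest layer difference of the 5 and the only overlap. Its signals in granulosa were 2008 and 886 in small, 745 and 810 in medium, and 746 and 348 in large follicles. In theca they were 105 and 441 in small, 172 and 201 in medium, and 243 and 177 in large follicles. The overlap came from theca small replicate 2, at 441, which exceeded granulosa large replicate 2, at 348, whereas within each size the layers did not overlap. GATM was higher in granulosa over all sizes by 1.91 ± 0.32 (3.76-fold, limma adjusted p = 0.000805). The difference was called in small follicles (2.52 ± 0.56) and not in medium (1.97 ± 0.56, adjusted p = 0.0523) or large ones (1.24 ± 0.56, adjusted p = 0.224).

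All 5 genes were thus called higher in granulosa over all sizes, against 13.6% of tested probe sets called in that direction. The genes were picked with these differences known, so the count describes them and is no test of the set. Their median difference was 2.57, and that of all tested probe sets 0.10. For 4 of the 5, all 6 granulosa arrays lay above all 6 theca arrays, which held for 5.1% of probe sets. In small follicles 5 of 5 were called higher in granulosa (4.06% of probe sets), in medium follicles 4 of 5 (1.79%) and in large follicles 3 of 5 (2.02%). In the main fit KRT18, IHH and NR5A2 were called in every size, as were 0.273% of all probe sets. The 5 calls over all sizes held in all 20 alternative settings.

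The calls within single sizes rested on few arrays. In small follicles 2 of 5 remained called without theca small replicate 1, the array with the uneven GAPDH signal, and 3 of 5 without either granulosa array or without both arrays that stand apart. In medium follicles 2 of 5 remained without theca medium replicate 2. In large follicles 1 of 5, KRT18, remained without granulosa large replicate 1, without theca large replicate 2, or without both arrays that stand apart. The NR5A2 call in large follicles was lost in 15 of 21 alternative settings, and its difference ran from 1.31 to 2.09 when 1 array was left out. For IHH the call was lost in 9 of 21 settings in medium, 4 of 21 in large and 2 of 21 in small follicles. KRT18 kept its call in each size under every setting run.

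**Figure D2:**
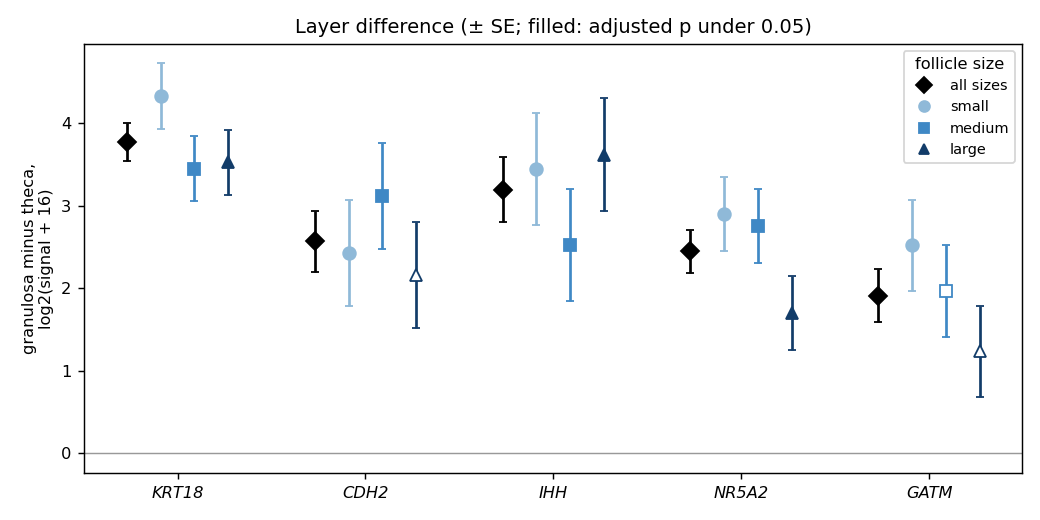
Granulosa minus theca difference of log2(signal + 16) for each gene, over all sizes and within each size. Error bars are standard errors of the limma model, and filled symbols have an adjusted p under 0.05. All 20 differences lie above 0, from 1.24 for GATM in large follicles to 4.33 for KRT18 in small ones.

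Among the follicle sizes of granulosa, KRT18 was the gene with the largest change. It fell by 2.16 on the log2 scale from small to large follicles (± 0.40, 4.46-fold, limma adjusted p = 0.0118), and was the 1 of 5 genes called, against 0.4% of probe sets called in that direction. From small to medium follicles the difference was -2.38 ± 0.40 (5.22-fold), with arrays that did not overlap and the 7th smallest p of the 17236 probe sets, but with an adjusted p of 0.0788. A fit on these granulosa groups alone gave an adjusted p of 0.0454. Large and medium granulosa did not differ beyond the spread of their arrays (0.23 ± 0.40, 95% interval -0.62 to 1.08, adjusted p = 0.887). Both contrasts with small follicles use the same small follicle arrays.

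The KRT18 call from small to large depended on single arrays while its size did not. Without granulosa large replicate 1 the difference was -2.40 (adjusted p = 0.0944), without granulosa small replicate 1 it was -2.02 (adjusted p = 0.146), without granulosa small replicate 2 it was -2.29 (adjusted p = 0.0748), and with log2(signal + 1) it was -2.17 (adjusted p = 0.0617). Leukocyte markers moved with the same contrast. All 7 on the array were called higher in large than in small granulosa, against 1.82% of probe sets called in that direction, and their summed signal was 335 to 374 in small, 444 to 906 in medium and 3103 to 10625 in large granulosa. The 10625 came from granulosa large replicate 1, an array that stands apart, and the 3103 from granulosa large replicate 2. The part of leukocytes in the KRT18 change was not tested.

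The other 4 genes were not called in any contrast of sizes within granulosa. From small to medium, 0 of 5 genes were called by limma, against 0.0058% of probe sets. An unadjusted p under 0.05 was reached by 2 of 5, against 3.37% of probe sets. These were KRT18 and IHH, at -1.99 ± 0.68 with an adjusted p of 1. IHH replicates differed by several times within each size, and large minus medium gave 1.33 ± 0.68 (adjusted p = 0.493). GATM had its highest array in small and its lowest in large follicles, with -1.36 ± 0.56 between them and no overlap of arrays (unadjusted p = 0.0286, adjusted p = 0.267). CDH2 gave -0.63 ± 0.64 from small to large (95% interval -2.004 to 0.753, adjusted p = 0.711), and NR5A2 0.41 ± 0.45 (95% interval -0.55 to 1.38, adjusted p = 0.733). From medium to large granulosa 0 of 5 were called by limma (0.679% of probe sets) and 0 had an unadjusted p under 0.05 (11.6% of probe sets).

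In theca, limma called 0 of 5 genes between any sizes. Few probe sets were called there at all, 0.0116% from small to medium, 0.0348% from small to large and 0% from medium to large. An unadjusted p under 0.05 was reached by 1, 2 and 1 of the 5 genes in turn, against 6.2%, 10.2% and 3.13% of probe sets. KRT18 was lower in medium than in small theca by -1.51 ± 0.40 (adjusted p = 0.799) and in large than in small by -1.36 ± 0.40 (adjusted p = 0.294), with no overlap of arrays in either. NR5A2 ran the other way, with large minus small at 1.61 ± 0.45 (3.06-fold, unadjusted p = 0.00303, adjusted p = 0.277) and arrays of 162 and 291 above 33.4 and 102. The difference depended on the small theca arrays. Without theca small replicate 1, the array with the uneven GAPDH signal, it was 0.98 (adjusted p = 0.78). Without theca small replicate 2 it was 2.24 and called (adjusted p = 0.0253), but that value rests on theca small replicate 1 alone, which is assumed to vary like the other groups.

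Granulosa markers were uneven in the same theca contrast. Of the 8, INHBA, an activin subunit, and CYP19A1, the aromatase, were called higher in large theca, by 4.54 ± 0.50 and 5.70 ± 0.63, and the median of the list was 1.26. The other 6 were not called. FOXL2 gave 1.78, from theca small signals of 3.7 and 1.4 that lie below the filter level, FST gave 1.36 and INHA 1.16. FSHR, the receptor for follicle-stimulating hormone, gave 0.03, AMH, the anti-Müllerian hormone, -1.02 and HSD17B1 -1.54. KRT18 and CDH2 gave -1.36 and -0.36. The part of granulosa cells in the NR5A2 difference was not tested.

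Whether the sizes changed a gene differently in each layer was tested as the difference of the changes. By limma 0 of 5 genes were called in any of the 3 such contrasts, and 0 had an unadjusted p under 0.05. Of all probe sets 0%, 0.0116% and 0.0232% were called for medium minus small, large minus small and large minus medium. An unadjusted p under 0.05 was reached by 2.51%, 10.6% and 7.52% of them in turn. The values largest in size were those of GATM (-1.29 ± 0.79, limma adjusted p = 0.586) and NR5A2 (-1.20 ± 0.64, limma adjusted p = 0.531) for large minus small. The 95% interval for NR5A2, -2.57 to 0.17, shows how wide a difference these arrays allow.

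**Figure D3:**
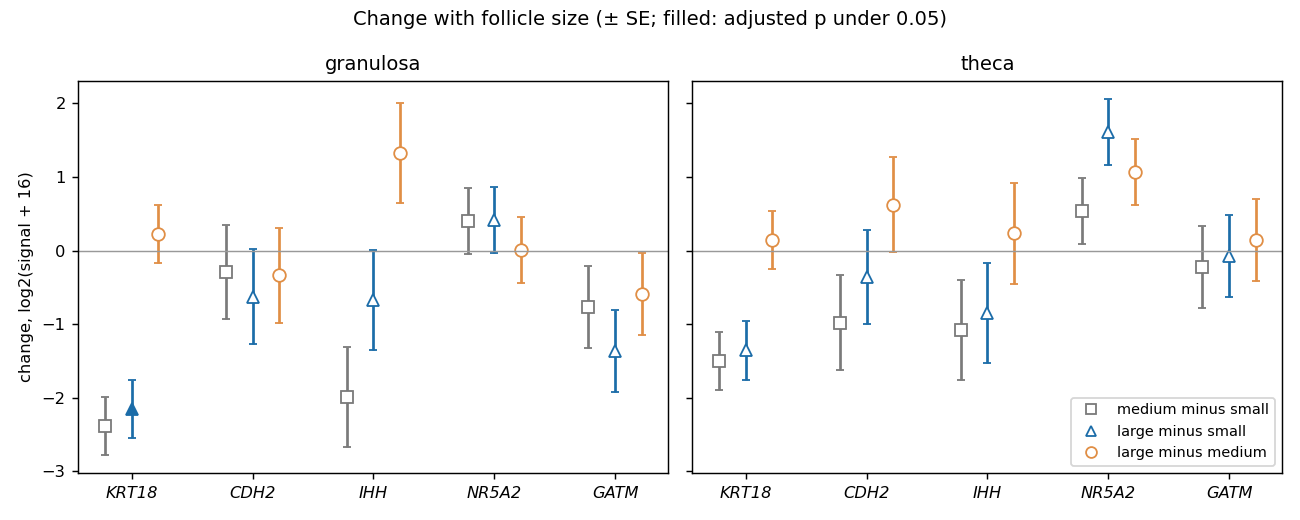
Change of log2(signal + 16) between follicle sizes within granulosa (left) and theca (right), with standard errors of the limma model. Filled symbols have an adjusted p under 0.05. The 1 filled symbol is KRT18 from small to large granulosa, at -2.16.

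The order of the 6 groups by mean level differed among the genes. For KRT18, CDH2, IHH and GATM small granulosa was highest, while for NR5A2 large granulosa was (mean log2 9.57) with medium granulosa next to it at 9.56. For all 5 genes the 3 granulosa groups held the top 3 places. The step from the lowest granulosa to the highest theca group was 1.95 for KRT18, 1.81 for CDH2, 1.45 for IHH, 1.29 for NR5A2 and 1.16 for GATM, and the ranges of both groups overlapped for GATM only. Neighbours within a layer mostly overlapped. They did not for KRT18 between small and large granulosa and between small and large theca, for NR5A2 between medium and small granulosa and between large and medium theca, and for GATM between small and medium granulosa.

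The layer accounted for most of the spread of each gene over the 12 arrays. It took 79.9% of the sum of squares for KRT18, 76.8% for CDH2, 74.1% for IHH, 79.6% for NR5A2 and 68.2% for GATM, against a mean of 27.0% over all tested probe sets. Follicle size took 17.2% for KRT18 and 3.42% for CDH2, with the others between them. Replicates took 1.98% for KRT18, the tightest, and 19.9% for GATM, the loosest, against a mean of 40.5% over all probe sets. The layer share rests on the difference by which the genes are known and is a description.

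**Figure D4:**
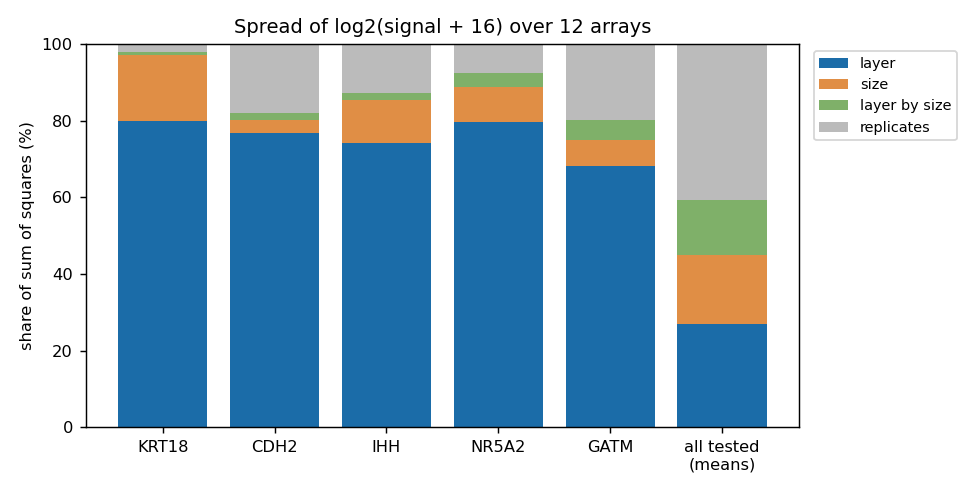
Share of the sum of squares of log2(signal + 16) over 12 arrays that falls to layer, size, layer by size and replicates, in percent, for each gene and as the mean over all tested probe sets. The layer share runs from 68.2% for GATM to 79.9% for KRT18.

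Partner genes of each pathway were compared between the layers over all sizes, where 24.8% of all probe sets were called in either direction. Of 8 tested genes of keratins and the epithelial surface, 2 were called higher in granulosa and 0 lower, at a median of 0.17. These were KRT8, the filament partner of KRT18 (1.72 ± 0.24, limma adjusted p = 0.000218), and CDH1, the E-cadherin of epithelial junctions (2.47 ± 0.25, adjusted p = 9.31e-06). KRT8 signals were 49.1 to 108 in granulosa and 0.6 to 15.9 in theca, with no overlap. CDH1 signals were 76.8 to 200 in granulosa and 2.2 to 19.9 in theca, again with no overlap. All theca arrays of both genes lay below the filter level of 22.5, so they passed the filter through granulosa alone, and the sizes of their differences depend on the added constant. From small to large granulosa, where KRT18 fell, KRT8 gave -0.19 ± 0.42 (adjusted p = 0.885) and CDH1 -0.23 ± 0.43 (adjusted p = 0.855). The mucin MUC1 rose in that contrast by 1.52 ± 0.35 (limma adjusted p = 0.039), from 2.5 and 2 to 52.7 and 24. The 52.7 came from granulosa large replicate 1, the array with the raised median signal. The size of this rise also depends on the constant, since the small follicle signals were below the filter level.

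KRT18 is made by the ovarian surface epithelium too, so markers of that tissue were followed. Of 6 on the array, MSLN, the mesothelin, and UPK3B did not pass the filter, with signals of 0.8 to 70 and 1.6 to 27.2. KRT7 and KRT19 gave -0.41 and 0.29 between the layers over all sizes and were not called. Of the 4 tested, 2 were called higher in granulosa, CDH1 and UPK1B, and the median was 1.03. Within sizes, KRT19 was higher in granulosa of large follicles by 1.93 ± 0.45 (adjusted p = 0.029), with 134 and 38.5 against 0.8 and 17.5, and KRT7 was lower in granulosa of small ones by -1.53 ± 0.37 (adjusted p = 0.0208), with 2.9 and 4 against 60.2 and 25.5. The 134 came from granulosa large replicate 1, the array with the raised median signal. The lower signals of both genes lay below the filter level, so the sizes of these differences depend on the constant too. UPK1B, a uroplakin, was higher in granulosa by 1.77 ± 0.32, with signals of 2820 and 3892 in small, 939 and 2268 in medium and 1589 and 1130 in large granulosa. It made up most of the summed signal of the list, which was 1188 to 4078 in granulosa and 355 to 1140 in theca. The part of surface epithelium in the KRT18 levels was not tested.

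Of 15 tested genes of junctions beside CDH2, 2 were called higher in granulosa and 5 lower, at a median of -0.18. CLDN1, a claudin of tight junctions, was higher by 1.73 ± 0.33 (adjusted p = 0.00199), with 425 to 1000 in granulosa and 49.1 to 378 in theca. CLDN11, another claudin, was lower by -3.43 ± 0.37, the endothelial cadherin CDH5 by -2.03 ± 0.25 and the mesenchymal cadherin CDH11 by -1.81 ± 0.20. CTNNB1 and CTNNA1, catenins of the cadherin complex, were not called, at 0.09 ± 0.17 and -0.04 ± 0.21. CDH3, P-cadherin, was lower by -1.37 ± 0.21, while CDH13 was not called (-0.33 ± 0.27, adjusted p = 0.404).

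The hedgehog list gave little to compare with IHH. Of its 15 genes 5 had a probe set with a single symbol and 3 passed the filter, of which limma called 0 in either direction. SMO, the membrane protein that relays the signal, was at 93.8 to 283 in granulosa and 115 to 333 in theca (-0.11 ± 0.20, adjusted p = 0.722). PTCH1, the receptor and a target of hedgehog, stayed at 0.9 to 17.5 in granulosa and 1.3 to 8.2 in theca, below the filter on all arrays. The GLI transcription factors were not analysed here.

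Of 20 tested nuclear receptors and steroid genes beside NR5A2, 4 were called higher in granulosa and 7 lower, at a median of -0.13. NR5A1, the close relative of NR5A2, was not called (-0.28 ± 0.24, adjusted p = 0.429), at 234 to 517 in granulosa and 272 to 821 in theca. PPARG, a lipid-sensing receptor, was higher in granulosa by 2.27 ± 0.43 and HSD17B1, which makes oestradiol from oestrone, by 1.91 ± 0.38. NR2F2, a receptor of mesenchyme, was lower by -3.27 ± 0.17 and CYP17A1, the androgen-making enzyme, by -5.42 ± 0.33. CYP19A1, which NR5A2 can activate in human cells, was called higher in granulosa on the brightest of its 4 probe sets (1.25 ± 0.36) and not on another tested probe set (0.59, adjusted p = 0.156). The brightest one rose within granulosa from small to large follicles by 4.15 ± 0.63 (adjusted p = 0.00587), a contrast in which NR5A2 gave 0.41.

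The creatine list moved both ways. Of 9 tested genes 2 were called higher and 2 lower in granulosa, at a median of -0.04. GAMT, which completes creatine synthesis after GATM, was lower in granulosa by -1.14 ± 0.21 (adjusted p = 0.00179), with 130 to 339 in granulosa and 371 to 651 in theca and no overlap. Over all sizes the enzymes of both steps were therefore called in opposite directions, GATM towards granulosa and GAMT towards theca. Within single sizes both kept these directions, but they were not called together in any. GATM was called in small follicles only, and GAMT in medium ones only (-1.44 ± 0.37, limma adjusted p = 0.0343). SLC7A1, a transporter of arginine, was higher in granulosa by 0.85 ± 0.20 and ODC1, the first enzyme of polyamine synthesis, by 0.76 ± 0.18. The kinase CKB was lower by -0.86 ± 0.24 (limma adjusted p = 0.0179) over all sizes, but in large follicles the difference was 0.51 ± 0.42 and not called. Within granulosa it rose from small to large follicles by 1.82 ± 0.42 (limma adjusted p = 0.0365), from 73.2 and 107 to 466 and 269. The 466 came from granulosa large replicate 1, the array with the raised median signal. The creatine transporter SLC6A8 was not called on its brightest probe set (-0.07) or on its other one (0.52, adjusted p = 0.0618).

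**Figure D5:**
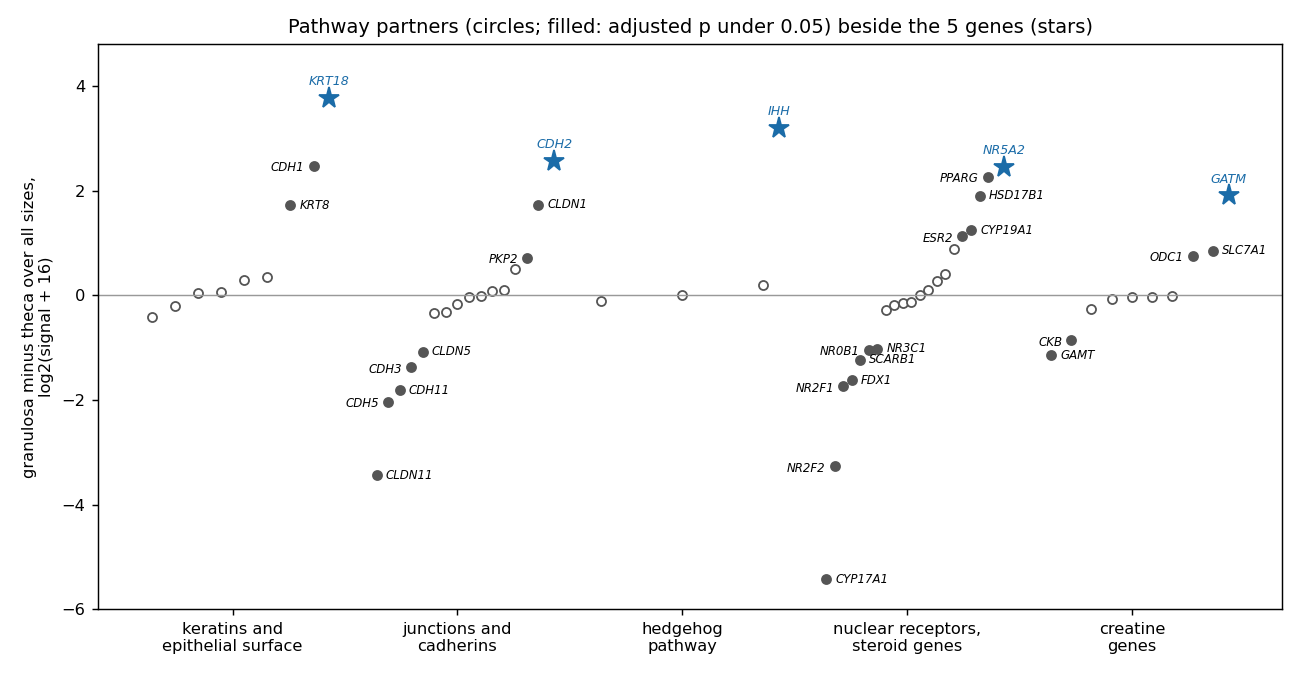
Granulosa minus theca difference of log2(signal + 16) over all sizes for the tested partner genes of each pathway (circles, filled where the adjusted p is under 0.05) beside the 5 genes (stars). KRT8 and CDH1 lie above 0 with KRT18, while GAMT, at -1.14, lies opposite GATM, at 1.91.

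Markers of other cells were compared over all sizes as well. Lower in granulosa were 4 of 5 tested endothelial markers (median -2.01), 5 of 6 fibroblast markers (median -2.85) and 5 of 5 markers of smooth muscle and pericytes (median -2.71), and 0 of these were higher. Of 7 leukocyte markers 2 were called higher and 1 lower (median 0.15), and of 2 red blood cell markers limma called 0 (median 0.62). Of 3 tested oocyte markers 1 was higher and 1 lower (median 0.76). The oocyte growth factors GDF9 and BMP15 did not pass the filter.

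The genes whose profile over the 12 arrays was most like that of each of the 5 were taken by Pearson's r of log2(signal + 16). The layer difference sets most of such an r, all values come from the same 12 arrays, and they are a description. For KRT18 these were SLC43A2, an amino acid transporter (r = 0.956), SEL1L3 (0.955) and the membrane metalloprotease MMP16 (0.954). For CDH2 they were the WNT pathway factor TCF7 (0.953), the chromatin remodeller CHD4 (0.938) and EAF1 (0.935). For IHH they were the nucleoporin NUP210 (0.973), GUCA1A (0.967) and MMP16 (0.956). For NR5A2 they were the glucose transporter SLC2A3 (0.982), the receptor tyrosine kinase MERTK (0.974) and TRIB1 (0.968). For GATM they were the mitochondrial ornithine carrier SLC25A15 (0.958), ENC1 (0.948) and SNAP25 (0.939). All genes named here for likeness were higher in granulosa on average, by 0.92 for SNAP25 to 2.76 for GUCA1A. That direction follows from choosing them by likeness to genes split by layer, and is no separate result. Mean theca signals of MMP16 (3.42), SNAP25 (4.28), SLC25A15 (12.3), SEL1L3 (14.6) and TRIB1 (19.8) lay below the filter level of 22.5. The sizes of their differences and their r therefore depend on the added constant. Mean theca signals of the other genes named for likeness lay above that level, though only just for CHD4 (22.75) and SLC2A3 (23.3).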

How the data were processed

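RNA from 12 pools of bovine granulosa or theca cells was hybridised to 1-colour Affymetrix arrays, 1 pool per array. The values are intensities on a linear scale that the authors deposited as a table of 24128 probe sets; the software behind them is not given in the sources used here. Every array had a 2% trimmed mean of about 125.03 to 125.04, so the deposited intensity values were already scaled. No detection calls were used. Samples were grouped by title and source name, since the description names theca throughout. Replicate arrays of a group had Spearman correlations of 0.867 to 0.948 and shared 0.325% to 0.641% of their values exactly, so none was counted as a repeat.

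After removal of 112 control probe sets, log2(signal + 16) was fitted with limma 3.58.1 in R 4.3.3 as a mean per group, over all 12 arrays and 6 groups, with 6 residual degrees of freedom. Probe sets were tested where at least 1 group had a mean above a signal of 22.5, the 40th percentile of the table, and 17236 of 24016 remained. P-values were adjusted by the Benjamini-Hochberg method within each of 13 contrasts. An exact permutation test of 2 against 2 arrays cannot go below p = 0.333. The script was tested on simulated data. Gene names came from the platform annotation, with 13292 probe sets of 1 symbol, 86 of several and 10638 unnamed; 13263 were found by Entrez number in a RefSeq gene table of the assembly ARS-UCD2.0, and 0 symbols changed. A gene with several probe sets was represented by the brightest.

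The 5 genes and 14 gene lists (143 entries, 113 on the array) were chosen with earlier results of these data known. The text names the 5 genes, up to 4 called genes per list with the largest layer difference, genes of the pathway lists called between sizes, and the 3 most alike genes; CDH3, CDH13, CTNNB1, CTNNA1, SMO, PTCH1, NR5A1, CYP19A1, SLC6A8, KRT7, KRT19, the granulosa markers in large and small theca, and markers below the filter were named after their values were seen. Alternatives were other added constants, quantile normalization, other filters, moderation with a trend, fits on fewer groups, a replicate block and leaving out each array. Leaving out both arrays that stand apart was added after seeing the data. Over all 15 pairs of groups, same-numbered replicates did not deviate together in general (6 pairs with r over 0.1, median r -0.0682, range -0.335 to 0.402). The numbers were therefore not taken as pairs. Whether granulosa and theca of the same size were paired was not tested separately.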

Additional observations from a re-analysis of the deposited data

How the results depend on the processing

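Of 1360 values for single genes under alternative settings, 1251 kept their direction and call, 47 lost the call, 10 gained it and 52 changed sign, none of the last called in either fit. The 5 calls over all sizes held in every setting (5 to 5 when 1 array was left out). Leaving out 1 array gave 2 to 5 genes called between the layers in small, 2 to 5 in medium and 1 to 3 in large follicles, 0 to 1 for large minus small granulosa and 0 to 1 for large minus small theca. Without both arrays that stand apart, a setting chosen after seeing the data, the counts were 3 in small and 1 in large follicles and 0 for large minus small granulosa. That last count was also 0 with log2(signal + 1), and a fit on only the groups compared gave 1 for medium minus small granulosa. With the replicate block, 3 genes were called in medium follicles, where IHH had a limma adjusted p of 0.0522. In large follicles 2 were called with it, and NR5A2 had a limma adjusted p of 0.0575. The main fit did not take the replicate numbers as pairs, and pairing of the layers within a size was not tested separately. The cause of these shifts was not tested. No other probe sets of the 5 genes were there to try.

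The sign changes were as follows. Without both arrays that stand apart, large minus medium granulosa was -0.0127 for KRT18, 0.0586 for CDH2 and -0.15 for NR5A2, and medium minus small theca was -0.0874 for NR5A2. In the same setting the granulosa minus theca differences of these changes were -0.16 for KRT18 (large minus medium), 0.75 for CDH2 and -0.35 for IHH (large minus small), -0.0345 for IHH (large minus medium), and 0.49 for NR5A2 and 0.41 for GATM (medium minus small). With log2(signal + 1) that difference was 0.65 for IHH (medium minus small), and with log2(signal + 64) it was -0.20 for IHH (large minus small) and 0.0308 for NR5A2 (medium minus small).

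When 1 array was left out, KRT18 ranged from -0.13 to 0.58 for large minus medium granulosa, from -0.39 to 0.69 for large minus medium theca and from -0.46 to 0.62 for their difference. CDH2 ranged from -0.62 to 0.0395 for medium minus small granulosa, from -0.73 to 0.0586 for large minus medium granulosa, from -2.03 to 0.0701, -1.05 to 0.34 and -0.43 to 1.67 for medium minus small, large minus small and large minus medium theca, and from -0.36 to 1.74, -0.96 to 0.42 and -2.01 to 0.0883 for the layer differences of these changes. IHH ranged from -1.80 to 0.46 for large minus small granulosa, from -0.0273 to 0.49 for large minus medium theca, and from -0.95 to 1.31 and -0.0345 to 2.22 for the layer differences of large minus small and large minus medium. NR5A2 ranged from -0.15 to 0.17 for large minus medium granulosa, from -0.0874 to 1.17 for medium minus small theca and from -0.77 to 0.49 for their layer difference of medium minus small. GATM ranged from -1.18 to 0.73, -1.03 to 0.88 and -0.0629 to 0.36 for medium minus small, large minus small and large minus medium theca, and from -1.50 to 0.41 for the layer difference of medium minus small. With 2 arrays a group, precision is set by the number of arrays, and theca signals of IHH lie near the background.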
